A study of Mus musculus with 6 samples.

Results

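The 6 genes examined here encode 3 Sprouty proteins (Spry1, Spry2 and Spry4) and 3 Spred proteins (Spred1, Spred2 and Spred3). They were taken by their symbols from a table of read counts for 21240 mouse genes, and all 6 were in the table. Sums and counts of Sprouty or Spred genes below cover these members only. In NMuMG cells exposed to TGFβ1, Spry1 RNA was 9.65-fold lower than in vehicle at 2 h and 3.40-fold lower at 12 h. Spred2 RNA was 2.86-fold higher at 2 h and 2.93-fold higher at 12 h. Spred3 RNA was lower after 2 h of TGFβ1 than in vehicle or after 12 h, and Spry2 RNA was higher at 12 h. The Spred3 fall at 2 h no longer passed without either vehicle library, the second 2 h replicate or either 12 h library. The Spry2 rise over vehicle no longer passed without any 1 of the vehicle or 12 h libraries. Spred1, the most abundant member per exon length, showed no change that passed the test. Spry4 was close to undetected.

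NMuMG is an established mouse mammary gland epithelial line, a single line without any engineered allele in these samples. All cells were grown, short of confluency, in medium with serum and insulin. Before treatment they were kept for 6 h in serum-free medium, which by the paper's methods also lacked insulin. The 3 groups had 2 biological replicates each. They received 5 ng/ml TGFβ1 for 2 h, 5 ng/ml TGFβ1 for 12 h, or the carrier without TGFβ1 (vehicle) for 2 h. The labels give the vehicle as Tris-HCl with BSA, the paper's methods as HCl with BSA. Vehicle cells were collected at 2 h only, so the 12 h samples also spent longer without serum and insulin. This cannot be told apart from a longer exposure to TGFβ1. Both TGFβ1 groups were compared with the same vehicle libraries.

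Sprouty and Spred proteins restrain signaling from receptor tyrosine kinases, the receptors for growth factors such as EGF and FGF, to Ras, Raf, MEK and ERK. Several of their genes are themselves transcribed when ERK is active, so that they act as feedback inhibitors, and they are known for limiting branching in organs such as the lung and mammary gland. Sprouty proteins bind partners such as Grb2 and Cbl. Spred proteins carry an EVH1 domain, by which they recruit the Ras-inactivating protein neurofibromin (Nf1) to the membrane, and the families share a cysteine-rich Sprouty domain near the carboxyl end. In proteins translated from the coding annotation, the 100-residue stretch richest in cysteine held 20 to 21 cysteines in the Sprouty proteins and 13 to 17 in the Spred proteins. Spry1 and Spry2 were identical at 53.1% of the columns of their local alignment, gap columns included, and Spred1 and Spred2 at 47.1%. The Sprouty-Spred pairs were identical at 21.0% to 26.5%. Gap columns lower these shares, more so for pairs with more gaps, so small differences between pairs are not a ranking.

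The libraries held between 14705886 and 23786993 counted reads. Levels are given as CPM (a gene's reads relative to the total of its library) scaled by TMM, a correction for differences in library composition, and the 11080 genes that reached 2 CPM in 2 or more libraries entered the test. Of the 6 genes, 5 passed this filter and Spry4 did not. Known TGFβ targets moved with the labels: the log2 fold change of Smad7, an inhibitor of TGFβ receptor signaling, was 2.07 at 2 h and 2.65 at 12 h (adjusted p = 0.00484 and 0.000589). Of 8 epithelial markers, 6 were tested, their summed level was 5030 to 5871 CPM in vehicle, 6523 to 6529 CPM at 2 h and 10386 to 10429 CPM at 12 h. The most abundant marker was the keratin gene Krt18. At 12 h 3 of the 6 tested markers were called higher, Krt8 among them (log2 fold change 1.63), and 1 lower, Krt19 (-1.95, adjusted p = 0.000103). Epcam and Cldn3, usually found in mammary epithelium, were at most at 0.697 and 0.0505 CPM. The summed level of 6 leukocyte markers was at most 1.77 CPM with Cd3e at 0, and that of 4 endothelial markers was 0.177 to 0.354 CPM in vehicle and 2 h libraries and 1.74 to 1.95 CPM at 12 h with Emcn at 0. The summed level of 5 basal and myoepithelial markers, mostly Krt14, was 2.93 to 5.30 CPM in vehicle, 9.11 to 12.2 CPM at 2 h and 6.06 to 9.40 CPM at 12 h. The part of these cell states in the results below was not tested.

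Bases before the annotated start are shown for Spry1 and Spred2, the members that moved most strongly in opposite directions against vehicle, with the sense strand written 5′ to 3′. They come from RefSeq windows (table built on GRCm38.p6) that each matched the NCBIM37 genome, also called mm9, exactly once. The RefSeq start was the same base as the GENCODE start for Spry1, but lay 67 bases inside the gene as GENCODE annotates it for Spred2, so that only the 183 bases before both starts are printed for Spred2, against 250 for Spry1. Neither stretch holds a match to the motifs searched, and no base is in capitals.
Spry1, NCBIM37 chr3:37538619-37538868, plus strand: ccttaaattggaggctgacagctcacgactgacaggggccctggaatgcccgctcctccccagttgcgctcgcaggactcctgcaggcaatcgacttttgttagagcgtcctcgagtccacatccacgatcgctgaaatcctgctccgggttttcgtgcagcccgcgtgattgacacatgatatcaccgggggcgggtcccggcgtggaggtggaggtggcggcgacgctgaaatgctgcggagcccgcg
Spred2, NCBIM37 chr11:19824195-19824377, plus strand: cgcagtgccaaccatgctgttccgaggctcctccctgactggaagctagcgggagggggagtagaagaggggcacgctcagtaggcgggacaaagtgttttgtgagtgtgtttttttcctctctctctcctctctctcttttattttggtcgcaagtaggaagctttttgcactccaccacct

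The full 300-base windows, from 250 bases before to 50 bases after the RefSeq start, were 64.3% (Spry1) and 57.0% (Spred2) G or C, against a median of 52.7% over 32851 mouse promoter windows. Windows were examined for 5 members, with Spry4 left out, and ranged from 55.0% (Spred3) to 72.3% (Spred1). Both strands were searched for TGANTCA (AP-1), TGACGTCA (CRE), CAGAC (SMAD), GGAAGT (ETS) and CAGGTG (the E-box bound by ZEB and Snail factors), which occurred in 7.81%, 1.79%, 49.6%, 23.8% and 20.2% of all windows. The only match among the 5 members was the ETS motif of Spred2, on the minus strand and beginning 33 bases before the RefSeq start, which is 34 bases after the GENCODE start. The RefSeq start of Spry2 was also that of GENCODE, whereas that of Spred1 lay 303 bases before it and that of Spred3 1194 bases after it, inside the gene as GENCODE annotates it. None of these letters was in the windows of Spry1, Spry2, Spred1 and Spred3, which says nothing of sites elsewhere.

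Spry1 (NCBIM37 chromosome 3, 37538869 to 37543520, plus strand) had 391 and 275 reads in the vehicle libraries, 34 and 49 reads after 2 h of TGFβ1 and 160 and 96 reads after 12 h. On the CPM scale it stood at 23.0 and 17.5 in vehicle, 1.72 and 2.47 at 2 h, and 6.97 and 4.93 at 12 h. The groups did not overlap: vehicle was highest, 2 h lowest, and 12 h lay between them. At 2 h Spry1 was 9.65-fold lower than in vehicle (log2 fold change -3.27, SE 0.292, adjusted p = 0.00114 by edgeR's quasi-likelihood test), and of the 11080 genes tested 5 had a lower log2 fold change. It remained 3.40-fold lower at 12 h (log2 fold change -1.76, SE 0.266, adjusted p = 0.00235), although it had risen 2.84-fold from 2 h to 12 h (log2 fold change 1.51, SE 0.290, adjusted p = 0.00889). That rise lost its call without the first 12 h replicate (log2 fold change 1.22, adjusted p = 0.0672), whereas both falls from vehicle were called in each of the 14 alternative analyses, with adjusted p up to 0.00900 at 2 h and 0.0254 at 12 h. In these bulk samples, fewer cells with a transcript and less of it per cell cannot be told apart.

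Spry2 (chromosome 14, 106291166 to 106296036, minus strand), among these members the closest to Spry1 in protein sequence, moved differently. Its level was 8.66 and 7.90 CPM in vehicle, 6.58 and 5.45 CPM at 2 h and 13.4 and 12.2 CPM at 12 h. Both 2 h libraries lay below both vehicle libraries, but the log2 fold change of -0.46 (SE 0.183, 95% interval -0.90 to -0.02) did not pass the test over all genes (adjusted p = 0.152). At 12 h Spry2 was 1.54-fold higher than in vehicle (log2 fold change 0.63, SE 0.179, adjusted p = 0.0293) and 2.12-fold higher than at 2 h (log2 fold change 1.09, SE 0.181, adjusted p = 0.00519). The call against vehicle was lost without any one of the vehicle or 12 h libraries (log2 fold change 0.54 to 0.69, adjusted p = 0.0892 to 0.166), and with total counts in place of TMM (0.50, adjusted p = 0.0591). The call against 2 h was lost without the first 12 h replicate (1.01, adjusted p = 0.0520).

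Spry4 (chromosome 18, 38745922 to 38760922, minus strand) had 0 and 1 reads in vehicle, 0 and 0 at 2 h, and 4 and 1 at 12 h. A library with 0 reads allows a level of up to 0.151 to 0.177 CPM, taken as 3 reads and covering counting error only, so that a difference between groups was not detectable at this depth. Its highest level was 0.174 CPM, in the first 12 h replicate, and no fold change is given.

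**Figure D1:**
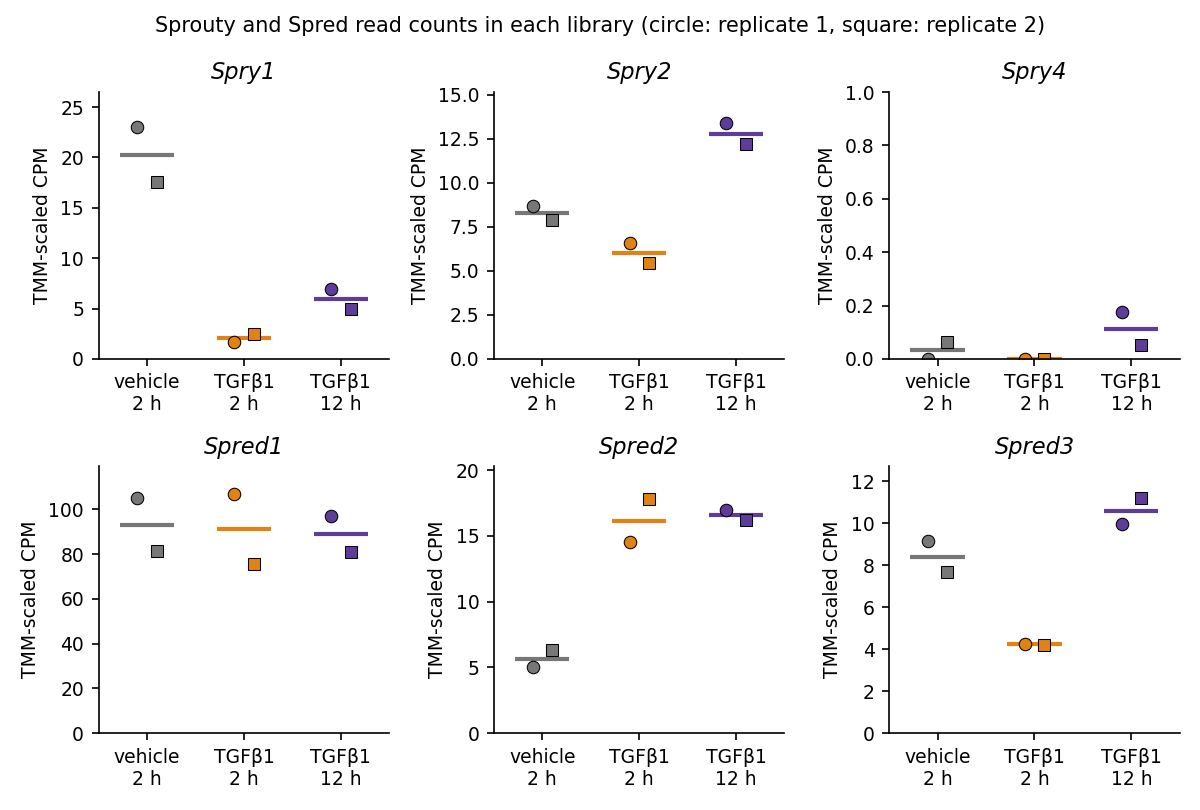
TMM-scaled CPM of the 6 genes in each library, with vehicle (2 h), TGFβ1 2 h and TGFβ1 12 h along the horizontal axis; circles are replicate 1, squares replicate 2 and lines the group means, and each panel has its own vertical scale. Spry1 drops from a mean of 20.3 to 2.10 CPM at 2 h, Spred2 rises from 5.66 to 16.2 CPM, and the Spred1 groups overlap.

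Among the Spred genes, Spred2 (chromosome 11, 19824378 to 19924029, plus strand) was called higher than in vehicle at both times. It had 85 and 99 reads in vehicle, 287 and 353 at 2 h, and 390 and 315 at 12 h, or 5.01 and 6.31 CPM, 14.5 and 17.8 CPM, and 17.0 and 16.2 CPM. Every TGFβ1 library lay above both vehicle libraries, while the 2 h and 12 h libraries overlapped. Spred2 was 2.86-fold higher at 2 h (log2 fold change 1.52, SE 0.193, adjusted p = 0.00387) and 2.93-fold higher at 12 h (log2 fold change 1.55, SE 0.192, adjusted p = 0.00104). Between 12 h and 2 h the log2 fold change was 0.04 (95% interval -0.40 to 0.47, adjusted p = 0.891). Both rises over vehicle were called in all 14 alternative analyses, with adjusted p up to 0.0333 at 2 h and 0.0140 at 12 h.

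Spred3 (chromosome 7, 29943848 to 29954860, minus strand) was lowest at 2 h. Its level was 9.13 and 7.65 CPM in vehicle, 4.25 and 4.19 CPM at 2 h, and 9.94 and 11.2 CPM at 12 h. Both 2 h libraries lay below the other 4, and both 12 h libraries lay above both vehicle libraries. At 2 h Spred3 was 1.99-fold lower than in vehicle (log2 fold change -0.99, SE 0.191, adjusted p = 0.0179). By 12 h it had risen 2.50-fold from the 2 h level (log2 fold change 1.32, SE 0.189, adjusted p = 0.00300), a call that held in all 14 alternatives, and its log2 fold change from vehicle was then 0.33 (95% interval -0.11 to 0.77, adjusted p = 0.189). The fall at 2 h was near the threshold: it was no longer called without either vehicle library, the second 2 h replicate or either 12 h library (log2 fold change -1.11 to -0.86, adjusted p = 0.0521 to 0.114), nor in a fit of the vehicle and 2 h libraries alone (-0.999, adjusted p = 0.0531).

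Spred1 (chromosome 2, 116947110 to 117008015, plus strand), the member linked to Legius syndrome in people, stood at 105 and 81.2 CPM in vehicle, 107 and 75.5 CPM at 2 h and 96.8 and 80.8 CPM at 12 h. Its groups overlapped in each comparison. The log2 fold change was -0.03 at 2 h (95% interval -0.52 to 0.46, adjusted p = 0.940) and -0.07 at 12 h (95% interval -0.56 to 0.42, adjusted p = 0.818), which leaves room for a change of that size in either direction. Replicate 1 was above replicate 2 in every group, by 0.37, 0.50 and 0.26 on the log2 scale in vehicle, 2 h and 12 h, where the median absolute difference over the tested genes was 0.15, 0.22 and 0.13. Leaving out 1 library moved the log2 fold change between -0.32 and 0.20 at 2 h and between -0.24 and 0.13 at 12 h.

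**Figure D2:**
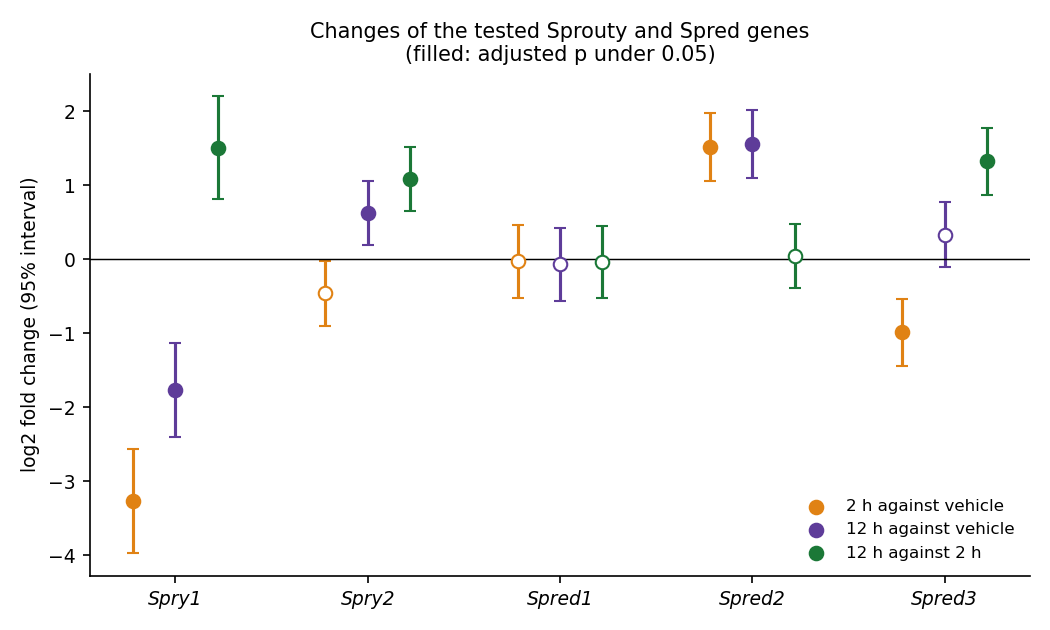
Log2 fold changes (vertical axis) of the 5 tested genes with 95% intervals, for 2 h against vehicle (orange), 12 h against vehicle (purple) and 12 h against 2 h (green); filled points have an adjusted p under 0.05. Spry1 is low at both times, Spred2 is at 1.52 and 1.55, and the Spred1 intervals all span 0.

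Counted over the members, at 2 h 1 of the 5 tested genes was called higher (Spred2) and 2 were called lower (Spry1 and Spred3), where over all 11080 genes 9.91% were called higher and 5.25% lower. At 12 h 2 were called higher (Spred2 and Spry2) and 1 lower (Spry1), against 21.8% and 21.5% of all genes. From 2 h to 12 h 3 were called higher (Spry1, Spry2 and Spred3), against 15.2% of all genes higher and 18.9% lower, and this count dropped to 1 without the first 12 h replicate. With 5 genes these shares are descriptions. Without TMM factors the median log2 fold change of all tested genes moved from -0.01 to -0.12 at 2 h and from 0.02 to -0.11 at 12 h, and the higher share of all calls from 65.4% to 46.7% and from 50.3% to 37.5%. No member changed direction under any of the scalings, test tools or filters tried.

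Levels of different genes can be compared only per length, here as CPM per kilobase of annotated exon. On this scale the order in vehicle was Spred1 (13.7), Spry1 (6.98), Spry2 (3.97), Spred3 (1.40), Spred2 (1.22) and Spry4 (0.00695). At 2 h Spred1 (13.4) was followed by Spred2 (3.50) and Spry2 (2.89), with Spry1 (0.722) and Spred3 (0.704) side by side. At 12 h Spry2 (6.13) came next after Spred1 (13.1), ahead of Spred2 (3.59), Spry1 (2.05) and Spred3 (1.76). The replicates of Spred3 and Spred2 overlapped in vehicle, those of Spred2 and Spry2 and of Spry1 and Spred3 at 2 h, and those of Spry1 and Spred3 at 12 h, so that these neighbors in the order did not differ beyond their spread. The other detected neighbors were separated in both libraries of a group.

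In vehicle the Sprouty genes summed to 11.0 ± 1.58 CPM per kilobase (SD, n = 2), against 3.61 ± 0.200 at 2 h and 8.20 ± 0.925 at 12 h. The Spred genes summed to 16.3 ± 2.44, 17.6 ± 2.76 and 18.4 ± 1.64 in the same order. The Sprouty sum at 2 h was below both other groups in each library, whereas the Spred sums overlapped. Spry1 made up 25.5% of the summed level of all 6 genes in vehicle, 3.49% at 2 h and 7.63% at 12 h, and Spred2 made up 4.59%, 16.8% and 13.5%. Spred1 alone held 50.1%, 62.8% and 49.1%. Such shares move together by construction, so a fall in Spry1 raises the share of the rest.

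**Figure D3:**
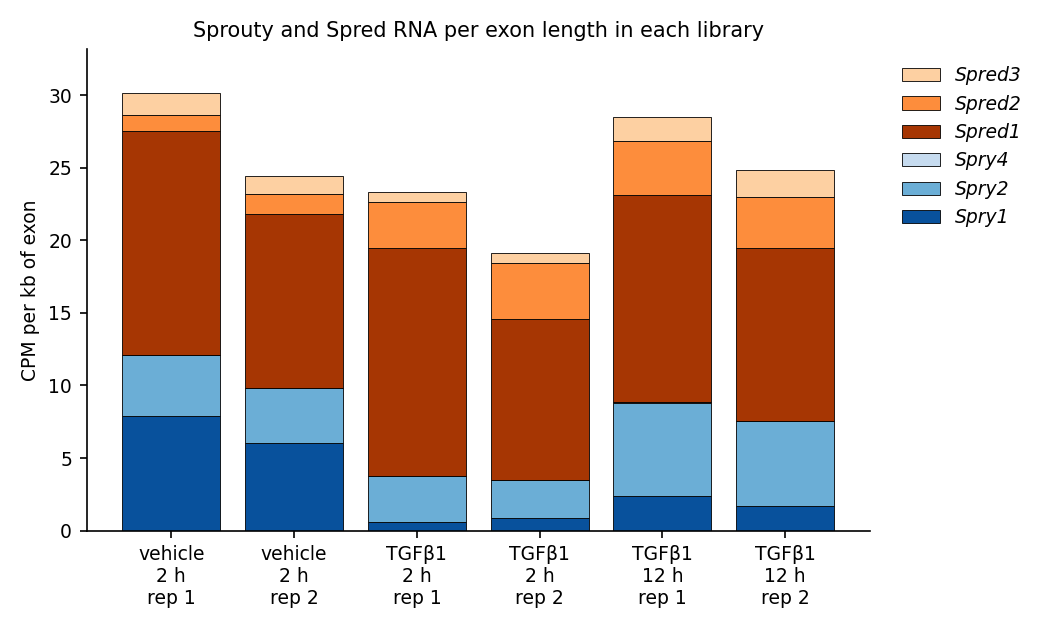
CPM per kilobase of annotated exon (vertical axis) of the 6 genes, stacked for each of the 6 libraries, with Sprouty genes in blue and Spred genes in orange and brown; bars start at 0. The Sprouty part is smallest in the 2 h libraries, with a mean sum of 3.61, against 11.0 in vehicle and 8.20 at 12 h.

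Across the 6 libraries, which form 3 groups, the log2 levels of Spry2 and Spred3 had a Pearson r of 0.91 and those of Spry1 and Spred2 an r of -0.85. These describe the group pattern and share library and depth. The genes whose log2 levels ran most like Spry1 were Terf2ip (r = 0.987), Zfp563 (0.985) and Shprh (0.983). All had smaller changes than Spry1, the log2 fold change at 2 h being -0.33, -0.98 and -0.43. Terf2ip was called against vehicle at neither time (adjusted p = 0.0897 and 0.271). Those most like Spry2 were Lgalsl, Arl14ep and Ankrd49, each with an r of 0.997. For Spred2 they were Ier5l, Bmpr2 and Zc3h12a, each with an r of 0.998. Bmpr2, a receptor for bone morphogenetic proteins, had log2 fold changes of 1.19 at 2 h and 1.15 at 12 h, close to those of Spred2, and Ier5l had larger ones of 2.97 and 3.04. Those most like Spred3 were Alg8 (0.996), Dopey1 (0.995) and Gpr180 (0.992). Of these, Alg8 and Gpr180 were called against vehicle at neither time (adjusted p of at least 0.0658).

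The 6 genes lie on 6 chromosomes, none overlaps another annotated gene, and their nearest tested neighbors are partly related to each other. Ndfip2 and Ndfip1, which encode related adaptors of Nedd4 ubiquitin ligases, lie next to Spry2 and Spry4, Meis2 and Meis1 lie next to Spred1 and Spred2, and Fam98b and Fam98c lie next to Spred1 and Spred3. On one side of Spry1, Nudt6, 219.7 kb away between starts, had a log2 fold change of -0.41 at 2 h (SE 0.303, adjusted p = 0.417). On the other, Ankrd50, 844.9 kb away, rose at 2 h while Spry1 fell (log2 fold change 0.99, SE 0.122, adjusted p = 0.00340). Ankrd50 was still higher at 12 h (0.93, adjusted p = 0.00133). A counted gene nearer to Spry1 on that side, 84.5 kb away, was under the filter and not tested. Ndfip2, 638.1 kb from Spry2, was higher at 12 h like Spry2 (log2 fold change 0.66, SE 0.132, adjusted p = 0.00729), a call lost without the first 12 h replicate (adjusted p = 0.0671).

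Arhgap26, a gene whose start is 0.266 kb from that of the nearly silent Spry4, fell at 12 h (log2 fold change -1.83, SE 0.300, adjusted p = 0.00333). Psmd8, a proteasome subunit gene 10.8 kb from Spred3, rose at 12 h (log2 fold change 0.80, SE 0.0992, adjusted p = 0.00105), when Spred3 was not called. For Meis1 and Actr2 on either side of Spred2, 905.4 and 188.5 kb away, the log2 fold changes were -0.33 and 0.07 at 2 h and -0.15 and 0.28 at 12 h, with adjusted p of at least 0.219. Next to Spred1, the log2 fold change of Meis2 was -0.52 at 12 h (adjusted p = 0.0281), a call lost without any one vehicle or 12 h library, and that of Fam98b was 0.14 (adjusted p = 0.662). The other tested neighbors were Fam98c, with 0.66 at 12 h (adjusted p = 0.0179), Mir17hg, 9146 kb from Spry2, with 1.48 (adjusted p = 0.0117), and Ndfip1, with 0.43 (adjusted p = 0.204). Fam98c lost its call without either vehicle library or the second 12 h replicate, and Mir17hg without the second vehicle or the first 12 h replicate.

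**Figure D4:**
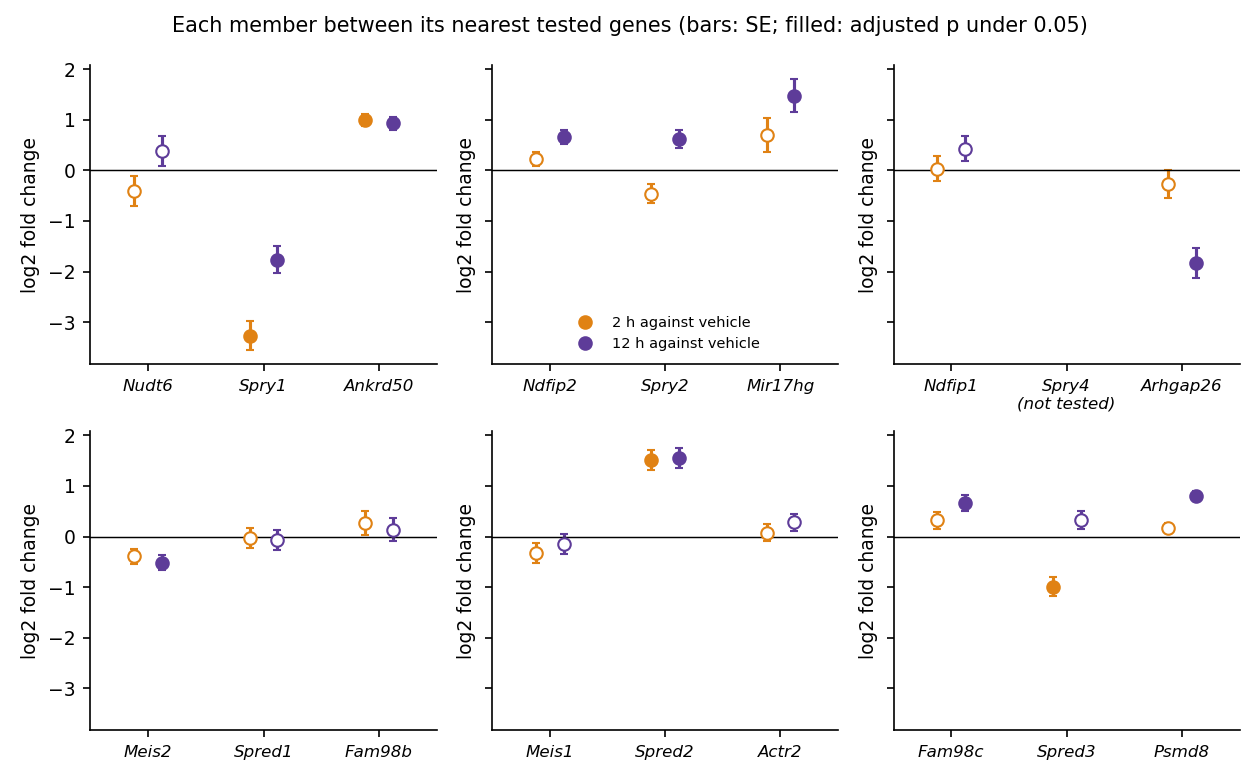
Log2 fold changes (vertical axis, bars are SE) of each Sprouty or Spred gene, in the middle of its panel, and its nearest tested genes on either side, at 2 h (orange) and 12 h (purple) against vehicle; filled points have an adjusted p under 0.05. Ankrd50 rose at 2 h beside the fall of Spry1, and the neighbors of Spred2 are open while Spred2 is filled at both times.

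The counts in the pathway lists below stand beside calls for 15.2% of all tested genes at 2 h and 43.3% at 12 h, so that calls became more frequent over all genes too. Among the receptors and ligands upstream of these inhibitors, of 15 receptor tyrosine kinase genes 9 were tested, of which the test called 3 at 2 h, 2 of them higher, and 6 at 12 h, 2 of them higher and 4 lower (median log2 fold change -0.01 and -0.14, against -0.01 and 0.02 over all tested genes). Without 1 library 1 to 3 were called at 2 h and 5 to 6 at 12 h. Egfr, the EGF receptor, rose at 2 h and 12 h (log2 fold change 1.23 and 1.72, adjusted p = 0.000924 and 8.39e-05). Fgfr2, a receptor for FGFs, fell at 12 h (log2 fold change -3.44, SE 0.167, adjusted p = 4.68e-05), while Fgfr1 rose (1.74, SE 0.406, adjusted p = 0.0138). Met, the receptor for hepatocyte growth factor, was lower at 2 h (-0.52, adjusted p = 0.0314) and lower at 12 h as well (-1.51, adjusted p = 0.000198). Flt1, a VEGF receptor, was higher at 2 h (0.43, adjusted p = 0.0324) and lower at 12 h (-1.08, adjusted p = 0.000330), the second call holding in all 14 alternatives and the first in 6. Of 9 FGF ligand genes only Fgf1 passed the filter, and it fell at 12 h (-2.02, SE 0.173, adjusted p = 0.000250).

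Among the intracellular carriers of the signal, of 11 adaptor and exchange factor genes, 2 were called at 2 h, both higher, and 3 higher and 1 lower at 12 h (median 0.11 and 0.30). Without 1 library 0 to 2 were called at 2 h and 2 to 6 at 12 h, and 7 at 12 h with the replicate number as a block. The called genes included Gab2, a docking protein (log2 fold change 0.76 at 2 h and 2.55 at 12 h, adjusted p = 0.00978 and 4.90e-05), and Ptpn11, the phosphatase SHP2 (0.52 and 1.01, adjusted p = 0.0165 and 0.000391), with Gab1 at 12 h (0.51, adjusted p = 0.0110). Of 12 genes for Ras, Raf, MEK, ERK and their scaffolds, 2 were called at 2 h, with Map2k2 (0.53) among them, and 3 at 12 h, with Map2k1 (0.87) and Nras (0.52) among them, all higher (median 0.22 and 0.01). With total counts in place of TMM this list had 2 higher and 2 lower at 12 h, and without 1 library 0 to 2 calls at 2 h and 1 to 4 at 12 h.

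Genes that act at the same step as Sprouty and Spred proteins, or beside them, moved in both directions. Of 9 counted Ras GTPase-activating protein genes 7 were tested, with 1 call in each direction at 2 h and, at 12 h, 4 calls up and 1 down (median 0.20 and 0.70), where 9.91% and 5.25% of all genes were called higher and lower at 2 h and 21.8% and 21.5% at 12 h. Without 1 library 0 to 2 of them were called at 2 h and 3 to 5 at 12 h. Rasal2 was higher at both times (log2 fold change 0.56 and 1.68), Rasa2 was lower at 2 h (-1.07), and Rasa4 (2.98) and Rasa1 (0.86) were higher at 12 h. Nf1, named because Spred proteins recruit its product and picked after its values were seen, had a log2 fold change of -0.02 at 2 h and -0.02 at 12 h (adjusted p = 0.948 and 0.903). Of 9 genes for proteins that bind Sprouty or Spred proteins, 1 was called at 2 h, the ubiquitin ligase gene Cblb (0.53), and 4 at 12 h, with Tesk1 (0.87) and Siah2 (0.58) among the 3 higher and Cav1 (-0.84) lower. With total counts this list had 1 higher and 2 lower at 12 h, and without 1 library 0 to 1 calls at 2 h and 1 to 5 at 12 h.

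Other feedback inhibitors of the pathway also moved in both directions at 2 h. Of 8 tested, 2 were called higher, Dusp5 (log2 fold change 1.34, adjusted p = 0.0105) and Dusp4 (1.20, adjusted p = 0.0264), which encode phosphatases of ERK, and 1 lower, Errfi1 (-1.68, SE 0.248, adjusted p = 0.00670), which encodes the EGF receptor inhibitor Mig6. At 12 h 4 were called higher and 1 lower (median -0.07 at 2 h and 0.53 at 12 h), led by Dusp5 (2.95), Dusp7 (1.94) and Dusp4 (1.54). The gene called lower at 12 h was not Errfi1, whose log2 fold change was then -0.09 (adjusted p = 0.784). Of 14 tested genes that ERK is known to induce, 5 were called at 2 h, 3 of them higher, and 13 at 12 h, 12 of them higher (median -0.13 and 1.30), beside 15.2% and 43.3% of all tested genes. Fos (3.16 at 2 h and 3.51 at 12 h) and Ier2 (1.14 and 2.08) were higher at both times, Phlda1 (1.22) was named at 2 h and Myc (1.91) at 12 h. Without 1 library, the number of these ERK target genes called ranged from 2 to 6 at 2 h and from 8 to 14 at 12 h, and that of the other feedback inhibitors from 1 to 4 and from 4 to 5.

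Of the 16 called pathway genes that the naming rule picked at 2 h, Egfr, Errfi1, Fos and Ier2 were called in all 14 alternative analyses, and the other 12 each lost the call without the first or the second vehicle library (adjusted p up to 0.207 over all alternatives). Of the 22 it picked at 12 h, 15 were called throughout, and the other 7, among them Fgfr1, Gab1, Nras, Rasa1, Cav1 and Siah2, each lost the call without the first 12 h replicate and without at least 1 vehicle library (adjusted p up to 0.177).

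**Figure D5:**
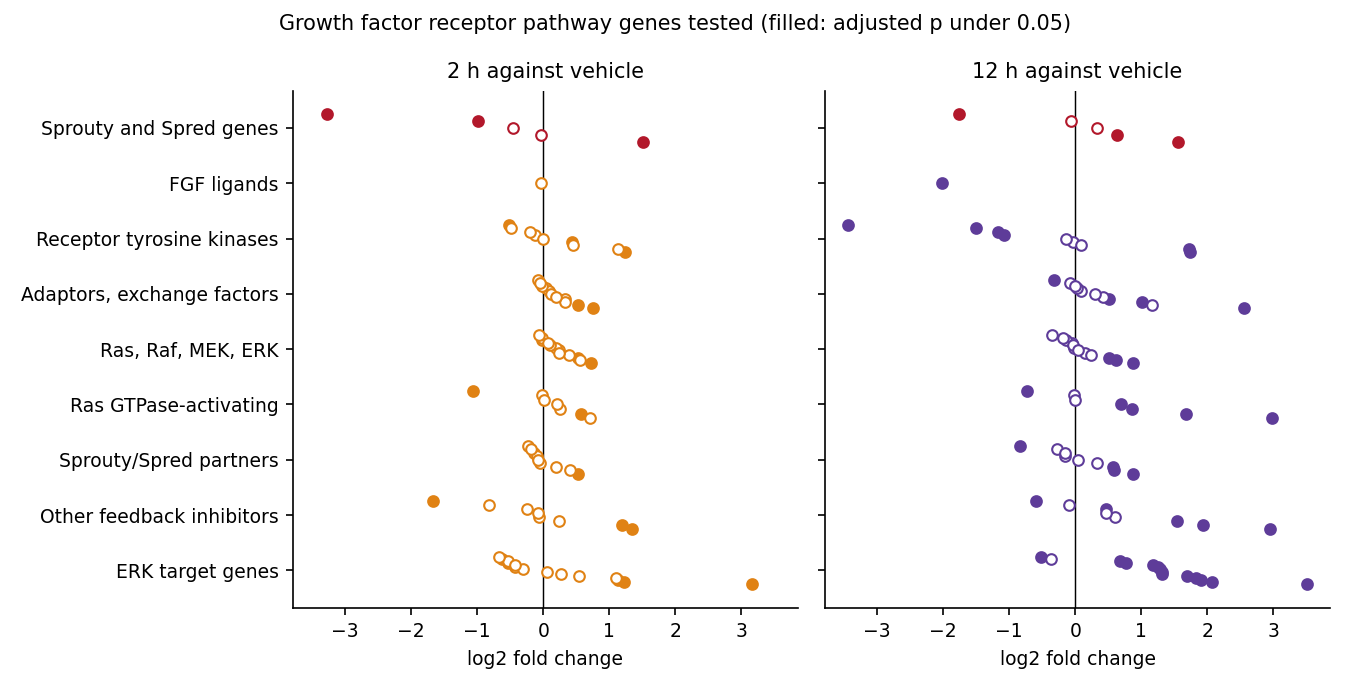
Log2 fold changes (horizontal axis) of tested genes in 8 lists along the growth factor receptor pathway and of the 5 tested Sprouty and Spred genes (red, top row), at 2 h (left) and 12 h (right) against vehicle; each point is a gene, filled where the adjusted p is under 0.05. At 12 h 12 of the 14 ERK target genes are filled and above 0, beside 21.8% of all tested genes called higher. The filled red points at 12 h are Spry1 at -1.76, Spry2 at 0.63 and Spred2 at 1.55.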

How the data were processed

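Total RNA from 6 NMuMG cultures (3 groups, 2 biological replicates each, grouped by the labels) was sequenced as stranded single-end libraries. Per the study's methods, the authors aligned reads to mm9 with Subread's subjunc, removed duplicates with SAMtools 0.1.19, and assigned reads to known genes by strand. The deposited values are raw counts per gene, 14705886 to 23786993 per library. Removing duplicates from single-end reads can cap the counts of abundant genes.

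From the counts, the 11080 of 21240 genes that reached 2 CPM in 2 or more libraries were fitted by edgeR 4.0.16 (TMM factors, 1 quasi-likelihood fit of all 3 groups without pairing), with Benjamini-Hochberg adjustment over all tested genes of each comparison. "Called" means an adjusted p under 0.05. SE is the log2 fold change over the square root of F, without its sign. The code was tested on simulated data with known fold changes. Replicates differed by more than counting noise: the mean squared difference was 19.5, 54.0 and 16.8 times that noise in vehicle, 2 h and 12 h.

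Exon lengths, positions and proteins came from the GENCODE annotation of NCBIM37, and promoter windows from RefSeq. The 14 alternatives were limma-voom 3.58.1, DESeq2 1.42.0, DESeq2 size factors, total counts, a minimum of 10 counts, no filter, a replicate block, only the groups compared, and each of the 6 libraries left out. The members, the pathway lists and the tests were chosen with earlier results of these data known. Named were all 6 members, their nearest tested (or, if closer, counted) genes, up to 3 called genes of each list with the largest log2 fold change at 2 h and at 12 h, and the 3 genes with the highest correlation to each called member. Some genes that this rule picked are not reported here.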

Additional observations from a re-analysis of the deposited data

Results flagged for a closer look

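The effect of TGFβ1 at 12 h differed from that at 2 h for 3 of the 5 tested genes, all higher at 12 h. Over all tested genes 15.2% were called higher and 18.9% lower. The edgeR test of the difference itself is the comparison of the 12 h with the 2 h libraries, since both share the vehicle libraries. The difference in log2 fold change was 1.51 for Spry1 (SE 0.290, adjusted p = 0.00889), 1.09 for Spry2 (SE 0.181, adjusted p = 0.00519) and 1.32 for Spred3 (SE 0.189, adjusted p = 0.00300). Both 12 h libraries were above both 2 h libraries for each of these genes. That separation comes from the same values as the calls and is not further support, and its share over all tested genes is not given. The calls of Spry1 and Spry2, but not that of Spred3, were lost without the first 12 h replicate. Longer time without serum and insulin cannot be told apart from longer TGFβ1 exposure here.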

How the results depend on the processing

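Spry1 and Spred2 against vehicle, and Spred3 from 2 h to 12 h, kept their direction and call in all 14 alternatives. For Spred3 at 2 h the log2 fold change was -0.999 in the fit of only the 2 groups compared (adjusted p = 0.0531) and -1.11 to -0.86 with 1 library left out. For Spry2 at 12 h it was 0.50 with total counts (adjusted p = 0.0591) and 0.54 to 0.69 with 1 library left out. Spred1 changed sign with 1 library left out, ranging from -0.32 to 0.20 at 2 h, from -0.24 to 0.13 at 12 h and from -0.27 to 0.24 between 12 h and 2 h, as did Spred2 between 12 h and 2 h (-0.10 to 0.19). The cause was not tested. The number of members called from 2 h to 12 h was 1 to 3 with 1 library left out. Spry4 could be fitted only with no filter (adjusted p = 0.670 at 2 h and 0.518 at 12 h). Of 210 alternative values for single members, 189 kept direction and side of the threshold.

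The calls over all genes behind the shares given as background numbered 1680 at 2 h, 4799 at 12 h and 3775 from 2 h to 12 h. They came to 893 at 2 h with only the 2 groups compared, and to 637 to 2200, 2900 to 5419 and 1683 to 3821 with 1 library left out. With the replicate number as a block (replicate block) they were 3222, 6127 and 5373. Same-numbered libraries deviated together over the tested genes, vehicle correlating at 0.71 with 2 h and at 0.26 with 12 h, and the TGFβ1 groups with each other at 0.39, but the labels share only a number and there are 2 pairs. The replicate block gave a log2 fold change of -3.25 for Spry1 at 2 h (adjusted p = 1.95e-05) and changed no call of a member.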
